A study of Homo sapiens with 6 samples.

Results

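DHRS3 and 8 further genes of retinoid metabolism and retinoic acid signaling were followed between SEM::mock and SEM::EGR3. They are RDH10 and RDH11, enzymes that interconvert retinol and retinaldehyde like DHRS3 itself, the receptors RARA, RARG, RXRA and RXRB, the retinoic acid hydroxylase CYP26B1 and the receptor corepressor NRIP1. The genes were found by their exact symbol, and all 9 stood once each among the 35410 listed genes. DHRS3 was chosen because of its large decrease in the EGR3 line, so its difference between the lines is given as a description and without a p-value.

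Retinol is oxidised to retinaldehyde and then to retinoic acid, which binds the receptors RAR in pairs with RXR and turns corepressor complexes on target genes into coactivator complexes. DHRS3 runs the first step backwards, from retinaldehyde to retinol, and the CYP26 enzymes inactivate retinoic acid. Genes of both kinds are known targets of retinoic acid, and in blood cells the pathway is best known from the maturation of myeloid leukemia cells.

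SEM cells are an established human line, labelled B cell precursor leukemia and proB cells, with the KMT2A::AFF1 fusion. SEM::EGR3 carries an inducible EGR3 transgene and SEM::mock the empty vector, and every culture of both lines received 1 µg/mL doxycycline for 48 h before RNA was taken. Each line was measured in 3 biological replicates by MACE-Seq, which reads the 3′ ends of polyadenylated transcripts. Whether a line is a single clone or a pool is not given in the sources used here.

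The SEM::mock libraries held between 5286115 and 6181388 counts in the listed genes and the SEM::EGR3 libraries between 7293092 and 15106018, so low levels were measured less precisely in SEM::mock. Levels are given as CPM, counts per 1000000 counts of the listed genes after TMM scaling. Differences are given as log2 fold changes of SEM::EGR3 against SEM::mock with a standard error (SE). The SE is the one implied by the fold change and its F statistic in the test named next. Adjusted p-values are those of edgeR's quasi-likelihood test, corrected by Benjamini-Hochberg over all tested genes, and a gene passed when its value was under 0.05. EGR3 itself stood at 1.42 ± 0.248 CPM in SEM::mock and at 634 ± 27.0 CPM in SEM::EGR3 (SD over the 3 libraries, as everywhere below), a log2 fold change of 8.78. The spread between replicates exceeded that of counting alone, and the p-values below measure only the spread between these 3 libraries per line.

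Before the retinoid genes, the labelled cell type was compared with marker genes. Of 12 B lineage markers, 9 had at most 3 counts in each SEM::mock library, and 4 of these had 0 counts in all of them. The summed level of the list was 2.64 to 5.86 CPM in SEM::mock and 671 to 704 CPM in SEM::EGR3, and all 10 tested markers were higher in SEM::EGR3. PAX5, a B lineage transcription factor, had 1, 1 and 2 counts in SEM::mock and reached 202 ± 14.7 CPM in SEM::EGR3 (n = 3). The defining markers of the label were thus at or near 0 in the libraries labelled SEM::mock.

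Genes that KMT2A fusions are known to drive summed to 209 to 226 CPM in SEM::mock and 1366 to 1471 CPM in SEM::EGR3, and all 10 were higher. Unlike the B lineage markers, most were detected in SEM::mock. There 2 of the 10 had at most 3 counts in each library, and FLT3 had only 1, 0 and 4. CDK6 alone made up much of the sum, at 140 ± 9.56 CPM. Erythroid and megakaryocyte markers were abundant in both lines, at 4195 to 4389 CPM in SEM::mock and 3654 to 3754 CPM in SEM::EGR3, led in SEM::mock by the fetal globin gene HBG2 and in SEM::EGR3 by the embryonic globin gene HBZ. Of the 11 tested genes of that list, 2 were higher and 9 lower. Myeloid markers, led by LYZ in SEM::mock and by CD33 in SEM::EGR3, summed to 344 to 357 CPM in SEM::mock and 113 to 117 CPM in SEM::EGR3, with 3 of 5 tested lower and 1 higher. T cell markers, led by CD3D in SEM::mock and by TRAC in SEM::EGR3, summed to 86.8 to 99.2 CPM in SEM::mock and 138 to 147 CPM in SEM::EGR3, with 4 of 7 tested higher and 3 lower, and epithelial and fibroblast markers, led by KRT8, to 878 to 917 CPM and 582 to 619 CPM, with 3 of 7 higher and 4 lower.

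These lists separated the lines in the same comparison as every retinoid gene below. An effect of EGR3 and a difference in cell identity between the libraries with these labels cannot be told apart, and no comparison can be made without SEM::mock. In such bulk samples, fewer cells of a type and less RNA per cell cannot be told apart either.

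**Figure D1:**
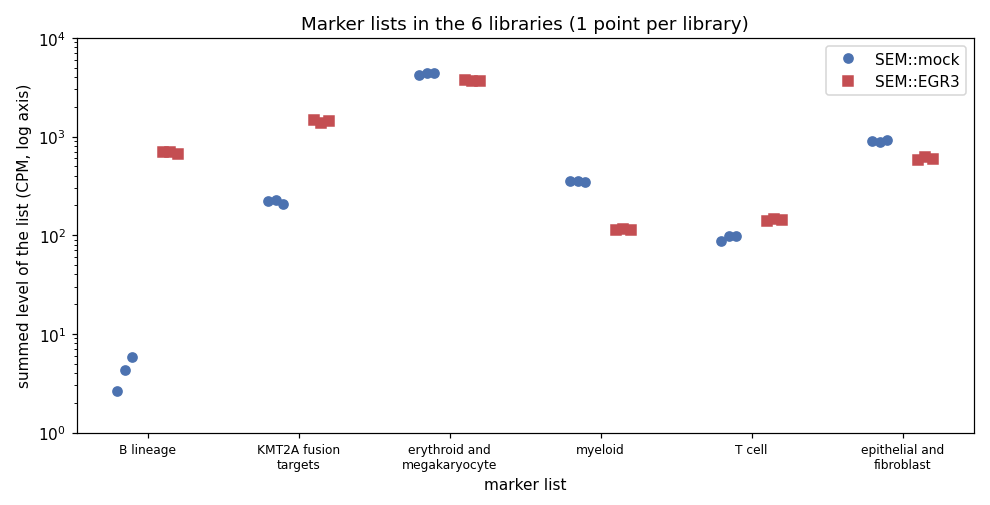
Summed level (CPM, log axis) of 6 marker lists in each library, with 3 points for SEM::mock (circles) and 3 for SEM::EGR3 (squares). B lineage markers summed to 2.64 to 5.86 CPM in SEM::mock and to 671 to 704 CPM in SEM::EGR3, while erythroid and megakaryocyte markers were at 3654 CPM or more in every library.

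DHRS3 (ENSG00000162496, chromosome 1, 12567910 to 12617731, minus strand, GRCh38) encodes a retinaldehyde reductase. Its raw counts were 367, 442 and 377 over replicates 1 to 3 of SEM::mock and 110, 58 and 53 over those of SEM::EGR3. The levels were 64.6, 73.7 and 73.6 CPM in SEM::mock and 7.07, 7.78 and 5.83 CPM in SEM::EGR3. The lowest SEM::mock library thus lay far above the highest SEM::EGR3 library, and the lines did not overlap.

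The mean level of DHRS3 was 70.7 ± 5.25 CPM in SEM::mock and 6.89 ± 0.985 CPM in SEM::EGR3 (n = 3 per line). The log2 fold change was -3.36 (SE 0.10), a level 10.2-fold lower. Omitting single libraries moved it only between -3.44 and -3.27. Of all 15465 tested genes, 10 had a lower log2 fold change. DHRS3 transcripts were still counted in every SEM::EGR3 library, so the gene was reduced but remained detectable.

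The 250 bases upstream of the annotated start are shown for DHRS3 and NRIP1, the genes of the 9 with a log2 fold change of at least 1 in size, for CRABP2, which had the largest fitted change of the other pathway genes with counts in both lines, and for RXRA, which held the only match to an EGR motif among the 9. The sequences come from RefSeq (GRCh38.p14), which gave an upstream sequence for 8 of the 9 genes, all but RDH10. They read 5′ to 3′ on the strand of the gene, and capitals mark the motif matches found by searching both strands. The positions are chr1:12618211-12618460 (minus strand) for DHRS3, chr21:15065937-15066186 (minus strand) for NRIP1, chr9:134326205-134326454 (plus strand) for RXRA and chr1:156705785-156706034 (minus strand) for CRABP2.
DHRS3: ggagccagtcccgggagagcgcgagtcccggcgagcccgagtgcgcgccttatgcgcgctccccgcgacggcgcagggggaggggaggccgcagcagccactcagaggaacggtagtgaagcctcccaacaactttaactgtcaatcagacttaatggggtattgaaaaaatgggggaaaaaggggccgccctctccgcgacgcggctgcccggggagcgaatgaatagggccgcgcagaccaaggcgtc
NRIP1: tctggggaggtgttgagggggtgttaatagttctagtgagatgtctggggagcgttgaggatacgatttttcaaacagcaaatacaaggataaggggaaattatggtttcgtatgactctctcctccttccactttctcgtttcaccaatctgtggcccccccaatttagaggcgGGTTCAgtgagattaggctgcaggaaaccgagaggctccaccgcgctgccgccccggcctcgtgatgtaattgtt
RXRA: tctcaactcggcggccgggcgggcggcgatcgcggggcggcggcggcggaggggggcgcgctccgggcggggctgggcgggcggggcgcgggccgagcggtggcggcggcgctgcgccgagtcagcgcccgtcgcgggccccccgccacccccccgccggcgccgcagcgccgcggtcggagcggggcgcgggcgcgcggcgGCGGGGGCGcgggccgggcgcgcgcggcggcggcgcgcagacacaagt
CRABP2: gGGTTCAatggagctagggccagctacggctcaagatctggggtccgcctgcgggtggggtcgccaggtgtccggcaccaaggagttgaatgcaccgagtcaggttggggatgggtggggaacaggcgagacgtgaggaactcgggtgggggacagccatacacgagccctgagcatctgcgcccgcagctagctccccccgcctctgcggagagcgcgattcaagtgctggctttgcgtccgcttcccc

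The letters searched for EGR factors were GCGTGGGCG, present in 0.71% of the 27305 RefSeq promoter windows of this length, and GCGGGGGCG, present in 4.68%. Those searched for retinoic acid receptors were the hexamers AGGTCA (12.1% of windows) and GGTTCA (7.17%), alone or as direct repeats with 5 (0.0183%) or 2 (0.00366%) bases between them. DHRS3 held none of these letters in its window, in which 65.2% of the bases were G or C. RXRA held 1 match to GCGGGGGCG, 48 bases before its start, in a window of 89.2% G and C. NRIP1 held 1 GGTTCA, 75 bases before its start, RARA 1 AGGTCA at 230 bases and CRABP2 1 GGTTCA at 249 bases, and none of the 8 windows held a direct repeat. The RXRA window lies within the RXRA locus as GENCODE draws it, since RefSeq places the start farther downstream. For DHRS3, RefSeq places the start farther upstream. Its window begins at 12618211 and the GENCODE locus ends at 12617731, so the bases between them were not searched. Binding of EGR3 or of the receptors to these windows was not measured here, and a window without a match says nothing about either factor.

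Among the 15465 tested genes, 68.5% passed in either direction, 36.5% as higher and 32.0% as lower in SEM::EGR3, and in 70.1% the libraries of the lines did not overlap. Against that background, 7 of the 8 genes beside DHRS3 were tested and all 7 passed, 3 as higher (RARA, RARG and RXRB) and 4 as lower (RDH10, RDH11, RXRA and NRIP1). CYP26B1 had too few counts to be tested. In each of the 8 tested genes the libraries of the lines did not overlap. With most of all tested genes past the threshold, nothing is read from these counts about the retinoid genes, and their levels are given one by one.

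**Figure D2:**
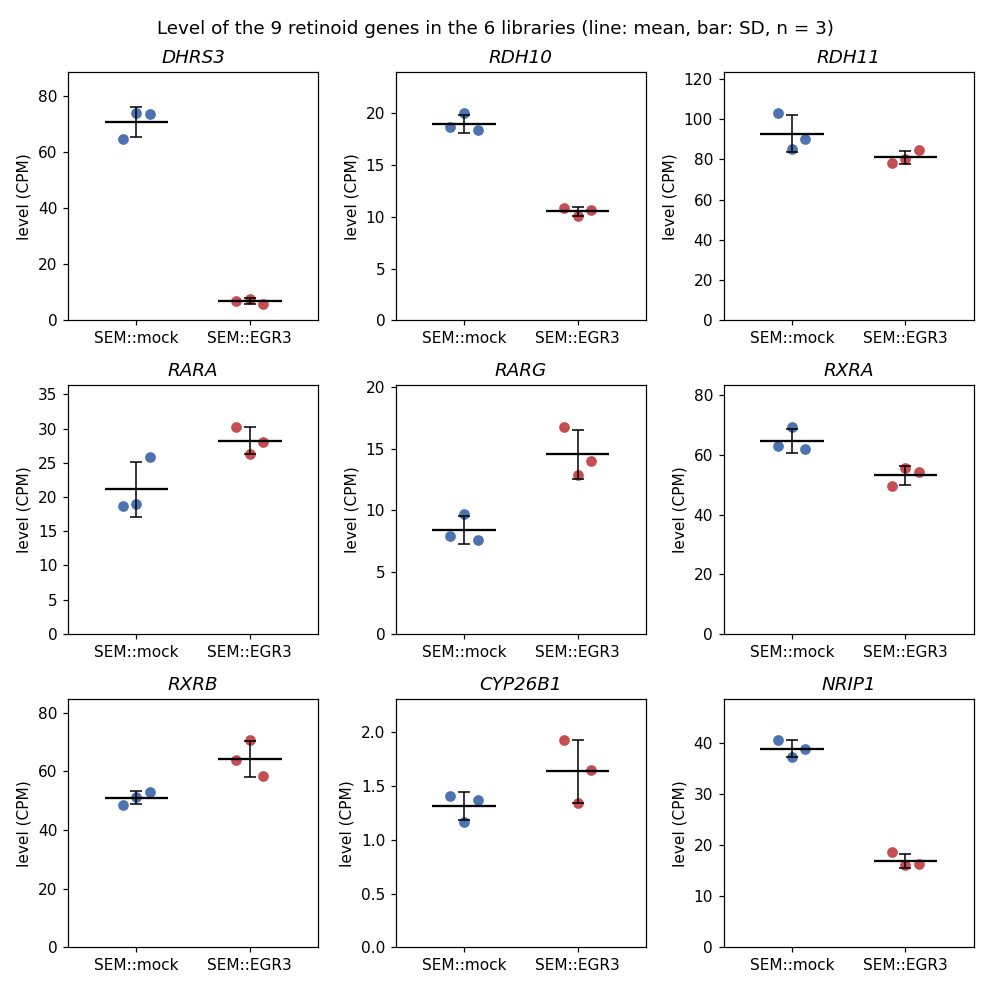
Level (CPM) of the 9 genes in each library, with 1 point per library, the mean as a line and the SD as a bar (n = 3 per line). DHRS3 measured 64.6 to 73.7 CPM in SEM::mock and 5.83 to 7.78 CPM in SEM::EGR3, NRIP1 and RDH10 were lower in SEM::EGR3 with no overlap, and the lines overlapped in CYP26B1.

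RDH10 (ENSG00000121039, chromosome 8, 73294612 to 73325281, plus strand) encodes the dehydrogenase that oxidises retinol to retinaldehyde, the step opposite to that of DHRS3. Its levels were 18.6, 20.02 and 18.4 CPM in SEM::mock and 10.9, 10.1 and 10.7 CPM in SEM::EGR3. Each line was tight, and the 3 SEM::EGR3 libraries lay together below the SEM::mock libraries. Its fitted log2 fold change was -0.84 (SE 0.12, adjusted p = 7.91e-07, edgeR), or 1.80-fold lower. RDH10 shares 1178 bases with the ribosomal protein gene RPL7 on the opposite strand, which had 7322 counts over SEM::mock and 12396 over SEM::EGR3, and whether counting used the strand is not stated.

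RDH11 (ENSG00000072042, chromosome 14, 67676801 to 67695814, minus strand) encodes another retinaldehyde reductase. Its levels were 102.8, 84.9 and 90.2 CPM in SEM::mock and 78.4, 79.9 and 84.4 CPM in SEM::EGR3. The lines came within 1 CPM of each other, with SEM::mock replicate 1 standing highest. This amounted to a log2 fold change of -0.20 (SE 0.07, adjusted p = 0.0142, edgeR), the smallest among the tested genes of the 9. The call was lost without SEM::mock replicate 1 (log2 fold change -0.13, adjusted p = 0.0994 in the same edgeR test) and without SEM::EGR3 replicate 1 (-0.17, adjusted p = 0.0738). It was also lost without normalization factors (-0.12, adjusted p = 0.131) and under a filter of 10 counts per library (-0.15, adjusted p = 0.0667), so the decrease of RDH11 rested on these choices.

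The wider list of 16 retinol and retinaldehyde oxidoreductases held 8 tested genes, DHRS3 included. Beside DHRS3, 4 were lower, 2 higher and 1, RDH14, did not pass (log2 fold change -0.06, adjusted p = 0.541, edgeR). Over all tested genes, 32.0% were lower and 36.5% higher. The median log2 fold change of these 7 oxidoreductases was -0.20, beside 0.03 over all tested genes. DHRS9, a retinol dehydrogenase that like DHRS3 is known to respond to retinoic acid, had 39, 43 and 36 counts in SEM::mock, compared with 3, 3 and 5 in SEM::EGR3. Its level fell from 7.02 ± 0.155 CPM to 0.382 ± 0.180 CPM (n = 3 per line), a log2 fold change of -4.29 (SE 0.32, adjusted p = 1.15e-11, edgeR), and was the lowest of the list. RDH13, a mitochondrial family member, fell from 48.3 ± 2.79 to 18.1 ± 1.55 CPM (log2 fold change -1.39, SE 0.09, adjusted p = 8.5e-13, edgeR).

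The direction was not shared across the family. HSD17B6, a steroid and retinol dehydrogenase, rose from 1.43 ± 0.116 to 7.39 ± 0.652 CPM (n = 3 per line), a log2 fold change of 2.33 (SE 0.25, adjusted p = 8.63e-09, edgeR). It shares 213 bases with PRIM1 on the opposite strand, which had 338 counts over SEM::mock and 850 over SEM::EGR3. DHRS4, a carbonyl reductase active on retinal, rose by 0.91 on the log2 scale (SE 0.10, adjusted p = 1e-08, edgeR), though it has close copies beside it among which reads can be split. RDH5, an 11-cis retinol dehydrogenase, was under the filter, with 0, 2 and 2 counts in SEM::mock and 19, 14 and 14 in SEM::EGR3. RDH12 had 0 counts in all 6 libraries.

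Of the 7 genes that make or break down retinoic acid, ALDH1A2 alone had enough counts to be tested. It encodes a retinaldehyde dehydrogenase that forms retinoic acid, and its levels were 19.9, 21.0 and 21.1 CPM in SEM::mock and 8.29, 8.59 and 8.26 CPM in SEM::EGR3. The replicates of each line nearly coincided. ALDH1A2 shares 87298 bases with LIPC on the opposite strand, which had 16 counts over SEM::mock and 353 over SEM::EGR3. The fitted log2 fold change of ALDH1A2 was -1.30 (SE 0.12, adjusted p = 7.45e-10, edgeR). The other enzymes of this kind were near the limit of detection: ALDH1A1 had 4, 0 and 3 counts in SEM::mock, compared with 14, 10 and 10 in SEM::EGR3, and ALDH1A3 had 0 in all 6 libraries. AOX1, an oxidase that can use retinaldehyde, had 3, 0 and 3 counts in SEM::mock, compared with 23, 10 and 12 in SEM::EGR3.

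CYP26B1 (ENSG00000003137, chromosome 2, 72129238 to 72148038, minus strand) clears retinoic acid by hydroxylation. It was counted 8, 7 and 7 times in SEM::mock and 30, 10 and 15 times in SEM::EGR3, or 1.41, 1.17 and 1.37 CPM against 1.93, 1.34 and 1.65 CPM. The ranges of the lines overlapped once the counts were scaled to the depth of each library. The log2 ratio of the mean levels, 1.64 ± 0.293 over 1.31 ± 0.129 CPM (n = 3 per line), was 0.32, and between 0.19 and 0.44 with single libraries left out. Without the filter on low counts, the fitted log2 fold change was 0.37 (adjusted p = 0.491, edgeR), so a difference was not detectable at this depth. CYP26A1, the related hydroxylase known as a strong target of retinoic acid, had 1, 4 and 1 counts in SEM::mock, compared with 8, 2 and 7 in SEM::EGR3.

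Of the 4 receptor genes tested, 3 were higher and 1 lower, where 36.5% and 32.0% of all tested genes were. None of the 4 reached a log2 fold change of 1 in size, at which 16.7% of all tested genes passed as higher and 8.50% as lower. RARA (ENSG00000131759, chromosome 17, 40309192 to 40357643, plus strand), the retinoic acid receptor fused to PML in promyelocytic leukemia, measured 18.6, 19.0 and 25.8 CPM in SEM::mock and 30.3, 26.3 and 28.1 CPM in SEM::EGR3. SEM::mock replicate 3 stood apart from the other two and came within 1 CPM of the lowest SEM::EGR3 library. The difference on the log2 scale was 0.44 (SE 0.11, adjusted p = 0.00113, edgeR), with a range of 0.34 to 0.58 when single libraries were omitted. The antisense gene RARA-AS1 never had more than 17 counts in a library.

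RARG (ENSG00000172819, chromosome 12, 53210567 to 53232980, minus strand), a second receptor for retinoic acid, had the largest rise of the 9 genes. Its levels were 7.92, 9.68 and 7.62 CPM in SEM::mock and 16.8, 12.9 and 13.98 CPM in SEM::EGR3. All SEM::EGR3 libraries were above all SEM::mock libraries, with replicate 1 of SEM::EGR3 highest. Expressed as log2 fold change, this was 0.82 (SE 0.15, adjusted p = 3.61e-05, edgeR), or 1.76-fold higher. RARB, the receptor gene that retinoic acid is best known to induce, had 0 counts in 5 of the libraries and 1 count in SEM::EGR3 replicate 3.

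The rexinoid receptors, with which RAR and other nuclear receptors pair, moved in opposite directions. RXRA (ENSG00000186350, chromosome 9, 134317098 to 134440585, plus strand) measured 62.8, 69.4 and 61.9 CPM in SEM::mock and 49.7, 55.7 and 54.3 CPM in SEM::EGR3. Its log2 fold change was -0.30 (SE 0.07, adjusted p = 0.000881, edgeR). The decrease was small but held with each library left out, between -0.34 and -0.23.

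RXRB (ENSG00000204231, chromosome 6, 33193588 to 33200688, minus strand) measured 48.6, 51.4 and 52.9 CPM in SEM::mock and 63.9, 70.6 and 58.2 CPM in SEM::EGR3. The SEM::EGR3 libraries were higher and more spread out. The log2 fold change was 0.33 (SE 0.08, adjusted p = 0.000514, edgeR), and between 0.27 and 0.39 with single libraries left out. RXRB shares 244 bases with SLC39A7 on the opposite strand, which had 1698 counts over SEM::mock and 2792 over SEM::EGR3.

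NRIP1 (ENSG00000180530, chromosome 21, 14961235 to 15065936, minus strand) encodes RIP140, a corepressor that binds ligand-bound nuclear receptors and is itself a known target of retinoic acid. Its levels were 40.5, 37.2 and 38.9 CPM in SEM::mock and 18.6, 16.1 and 16.3 CPM in SEM::EGR3. The lines were far apart relative to their spread, with all SEM::mock libraries above all SEM::EGR3 libraries. The mean fell from 38.9 ± 1.64 to 17.0 ± 1.37 CPM (n = 3 per line). Its fitted log2 fold change was -1.17 (SE 0.09, adjusted p = 5.18e-11, edgeR), and between -1.26 and -1.13 with single libraries left out. Beside DHRS3, NRIP1 alone among the 9 genes passed with a log2 fold change of at least 1 in size, where 16.7% of all tested genes did so as higher and 8.50% as lower.

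Within the lines, the replicates of the 9 genes were close for most genes. The coefficient of variation in SEM::mock ran from 4.22% for NRIP1 to 19.0% for RARA, and in SEM::EGR3 from 3.88% for RDH11 to 17.9% for CYP26B1. DHRS3 varied by 7.43% in SEM::mock and by 14.3% in SEM::EGR3, where its counts were lowest. Ordered by log2 fold change, the tested genes ran DHRS3, NRIP1, RDH10, RXRA, RDH11, RXRB, RARA and RARG. Of neighbours in that order, RXRA and RDH11 (-0.30 and -0.20) and RXRB and RARA (0.33 and 0.44) lay within the sum of their standard errors.

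Around these genes, a list of 95 retinoid pathway genes that includes the 9 was examined by role. Of these, 56 were tested, 30 were under the filter on low counts and 9 were not analysed here. Among the 56, 23 were higher, 24 lower and 9 did not pass. By comparison, 68.5% of all tested genes passed, 36.5% upward and 32.0% downward in SEM::EGR3. The 24 include DHRS3. The median log2 fold change of the 56 was -0.07, beside 0.03 over all tested genes. Leaving out the 9 genes, 48 were tested, with 20 higher, 19 lower and a median of -0.04. At a log2 fold change of at least 1 in size, 8 of the 56 were higher and 12, DHRS3 and NRIP1 included, were lower. Over all tested genes, 16.7% and 8.50% were. Without the 9 genes, 8 of the 48 were higher and 10 lower at that size. Since DHRS3 was chosen for its decrease and the list with earlier results known, nothing is read from these counts about the pathway.

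**Figure D3:**
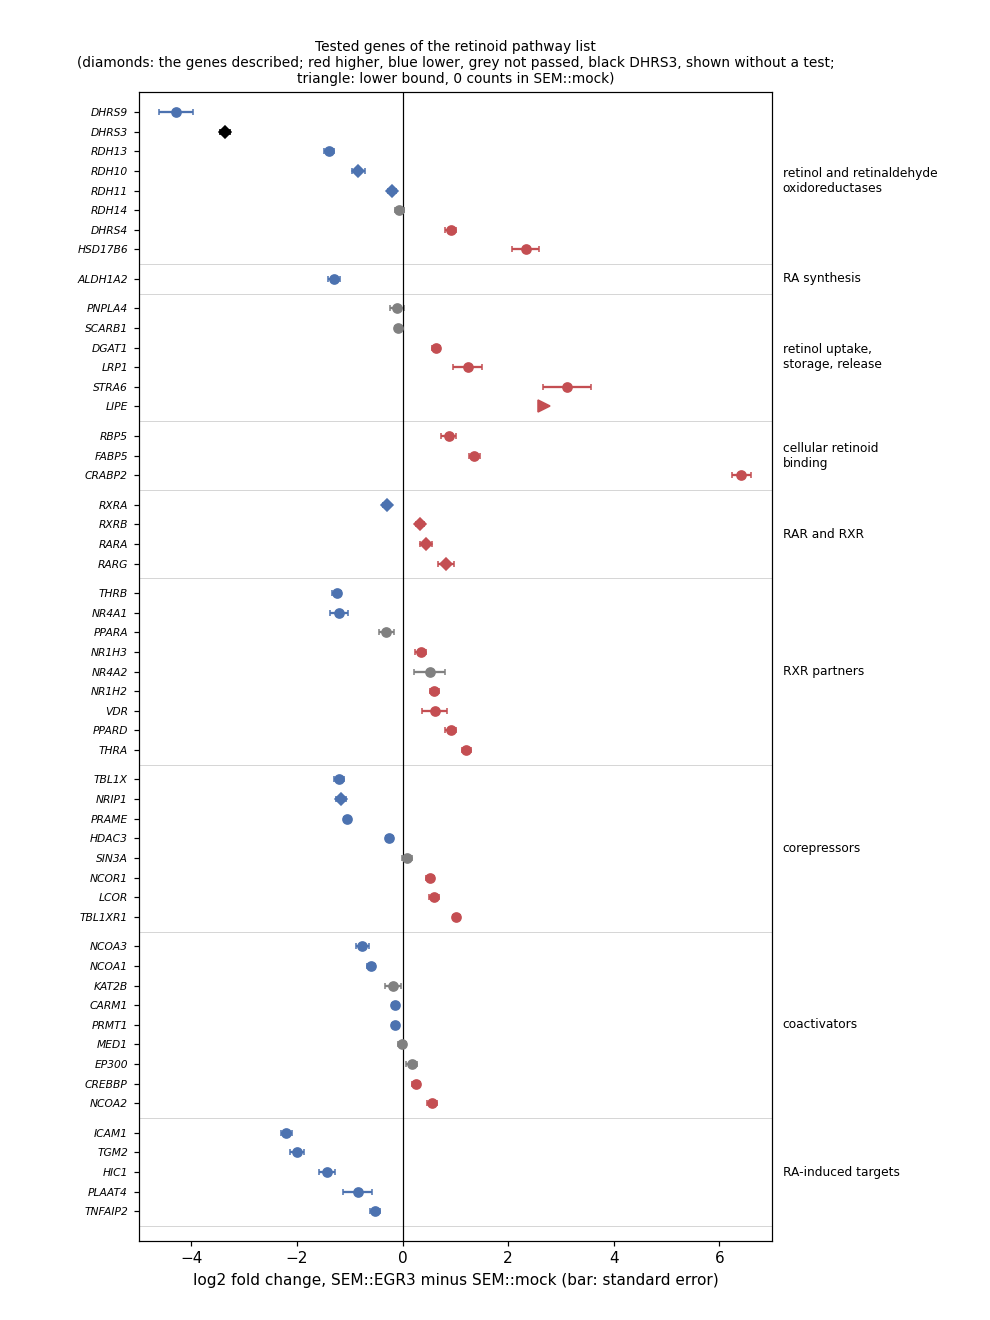
Log2 fold change of SEM::EGR3 against SEM::mock (bar: SE) for 53 of the 56 tested genes of the retinoid pathway list, by role, with diamonds for the genes followed here and a triangle for the lower bound of LIPE, which had 0 counts in SEM::mock. The RAR and RXR receptors lie between -0.30 and 0.82, while DHRS9 (-4.29) and DHRS3 (-3.36) lie far to the left and CRABP2 (6.41) far to the right.

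Of the 8 genes for intracellular carriers of retinoids, 3 were under the filter and 2 were not analysed here. The 3 that were tested were higher, as were 36.5% of all tested genes. CRABP2, which carries retinoic acid to RAR in the nucleus and is a known target of it, had 3, 3 and 4 counts in SEM::mock, compared with 818, 395 and 454 in SEM::EGR3. Its levels were 0.528, 0.501 and 0.781 CPM against 52.5, 53.0 and 50.0 CPM, from the edge of detection to a level well measured in every library. This amounted to a log2 fold change of 6.41 (SE 0.18, adjusted p = 6.47e-20, edgeR), the highest of the pathway list when LIPE, with 0 counts in SEM::mock, is set aside. FABP5, a fatty acid binding protein that can carry retinoic acid to PPARD, rose from 16.4 ± 1.65 to 41.2 ± 5.36 CPM (n = 3 per line), a log2 fold change of 1.36 (SE 0.11, adjusted p = 7.92e-11, edgeR). RBP5, a cellular retinol binding protein, rose by 0.87 (SE 0.15, adjusted p = 2.32e-05, edgeR) on the log2 scale.

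Of the 14 genes for uptake, storage and release of retinol, 7 were tested, with 4 higher, 1 lower and 2 that did not pass. The shares over all tested genes were 36.5% higher and 32.0% lower. STRA6, the membrane receptor that takes up retinol from its plasma carrier, had 1, 2 and 3 counts in SEM::mock, compared with 53, 30 and 20 in SEM::EGR3 (log2 fold change 3.11, SE 0.45, adjusted p = 1.35e-06, edgeR). LIPE, the hormone-sensitive lipase that can split retinyl esters, had 0 counts in every SEM::mock library and 54, 20 and 38 in SEM::EGR3, which is at least 6.40-fold higher when 3 counts per SEM::mock library are allowed (adjusted p = 1.66e-08, edgeR). Both genes overlap a gene on the opposite strand, LIPE-AS1 with 188 counts over SEM::mock and 357 over SEM::EGR3, and CCDC33 with 0 and 50. LRP1, a receptor for retinyl ester carrying chylomicron remnants, rose by 1.23 on the log2 scale (SE 0.27, adjusted p = 0.000311, edgeR) and overlaps STAT6 on the opposite strand.

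Of the 9 tested corepressors of nuclear receptors, 3 were higher, 5 lower including NRIP1, and 1 did not pass. Over all tested genes, 36.5% were higher and 32.0% lower. TBL1X and TBL1XR1, closely related exchange factors of the NCOR complexes, moved in opposite directions. TBL1X fell from 53.1 ± 4.32 to 22.9 ± 1.98 CPM (log2 fold change -1.20, SE 0.09, adjusted p = 9.86e-12, edgeR). TBL1XR1 rose from 52.6 ± 1.26 to 106.3 ± 2.58 CPM (log2 fold change 1.02, SE 0.06, adjusted p = 5.25e-13, edgeR). PRAME, a tumor antigen that can repress retinoic acid receptors, fell from 2003 ± 161 to 971 ± 60.04 CPM (log2 fold change -1.05, SE 0.06, adjusted p = 4.42e-14, edgeR) with n = 3 per line. The libraries of the lines did not overlap for any of these 3 genes, nor did they in 70.1% of all tested genes. The core subunit NCOR1 was higher by 0.52 on the log2 scale (adjusted p = 1.61e-07, edgeR).

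None of the 9 coactivators, all tested, reached a log2 fold change of 1 in size. Of all tested genes, 16.7% passed at that size as higher and 8.50% as lower. Of them, 2 were higher, 4 lower and 3 did not pass, where 36.5% of all tested genes were higher and 32.0% lower. The extremes were members of 1 family of steroid receptor coactivators. NCOA3 was lowest (log2 fold change -0.76, SE 0.12, adjusted p = 2.79e-06, edgeR) and NCOA2 highest (0.56, SE 0.10, adjusted p = 3.13e-05, edgeR). The histone acetyltransferase EP300, which serves many activators, had a log2 fold change of 0.17 (adjusted p = 0.153, edgeR).

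DHRS3 and NRIP1 also belong to a list of 22 genes that retinoic acid is known to induce. Of the other 20, 11 were under the filter, and the 9 tested genes all passed, 6 as lower and 3 as higher, with a median log2 fold change of -0.85 beside 0.03 over all tested genes, of which 68.5% passed, 36.5% as higher and 32.0% as lower. The list was drawn up with results of these data known, and its members respond to other inputs as well.

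ICAM1, a cell adhesion receptor, fell from 33.6 ± 2.63 to 7.35 ± 0.266 CPM (n = 3 per line), a log2 fold change of -2.20 (SE 0.11, adjusted p = 9.84e-15, edgeR). TGM2, a transglutaminase, fell from 34.0 ± 4.20 to 8.80 ± 1.47 CPM (log2 fold change -2.0, SE 0.13, adjusted p = 4.54e-13, edgeR) and overlaps RPRD1B on the opposite strand. HIC1, a transcriptional repressor, fell from 17.6 ± 2.58 to 6.61 ± 1.07 CPM (log2 fold change -1.43, SE 0.15, adjusted p = 6.72e-09, edgeR) and overlaps SMG6 on the opposite strand. Together with DHRS9, these were the genes of the list with the clearest decreases beside DHRS3 and NRIP1. CRABP2 and STRA6, described above with the carriers and uptake genes, were among those that were higher.

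The decrease of DHRS3 was set beside the nearest tested genes on chromosome 1, 3 on each side in RefSeq order. None of these had a log2 fold change as low. DHRS3 was chosen for its large decrease, so that much was set by the choice and nothing is read from it. VPS13D, a lipid transfer protein gene and the nearest on the side of the lower coordinates, was at -1.14 (SE 0.11, adjusted p = 7.25e-10, edgeR). HNRNPCL1, the nearest on the other side, did not pass, at 0.43 (SE 0.36, adjusted p = 0.296, edgeR). Farther out, the receptor gene TNFRSF1B was higher at 0.32 (adjusted p = 3.97e-05, edgeR), while TNFRSF8 (-0.52, adjusted p = 5.26e-05), PRDM2 (-0.64, adjusted p = 3.54e-07) and KAZN (-1.20, SE 0.36, adjusted p = 0.00513) were lower by the same edgeR test.

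The genes whose pattern over the 6 libraries lay nearest to that of DHRS3 were FCGR2A, CD3D, MS4A3, COLGALT2 and PRR9. Likeness was the root mean square difference between the log2(CPM + 0.5) values of the genes after subtracting each gene's mean, which was 0.12 for FCGR2A, 0.137 for CD3D, 0.158 for MS4A3, 0.173 for COLGALT2 and 0.192 for PRR9, beside a median of 1.66 over all tested genes. FCGR2A, an Fc gamma receptor of myeloid cells, measured 29.8 ± 3.26 CPM in SEM::mock and 2.79 ± 0.227 CPM in SEM::EGR3. CD3D, a subunit of the T cell receptor complex, measured 57.9 ± 2.33 and 6.24 ± 0.897 CPM. MS4A3, a gene of granulocyte and monocyte progenitors, measured 62.0 ± 3.46 and 5.41 ± 0.347 CPM (SD, n = 3 throughout). Since these genes were picked by their values, their log2 fold changes, between -3.54 and -3.04, are a description without a test. CD3D and MS4A3 also stand in the T cell and myeloid marker lists. Those lists did not move as one, since 4 of 7 tested T cell markers and 1 of 5 tested myeloid markers were higher.

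**Figure D4:**
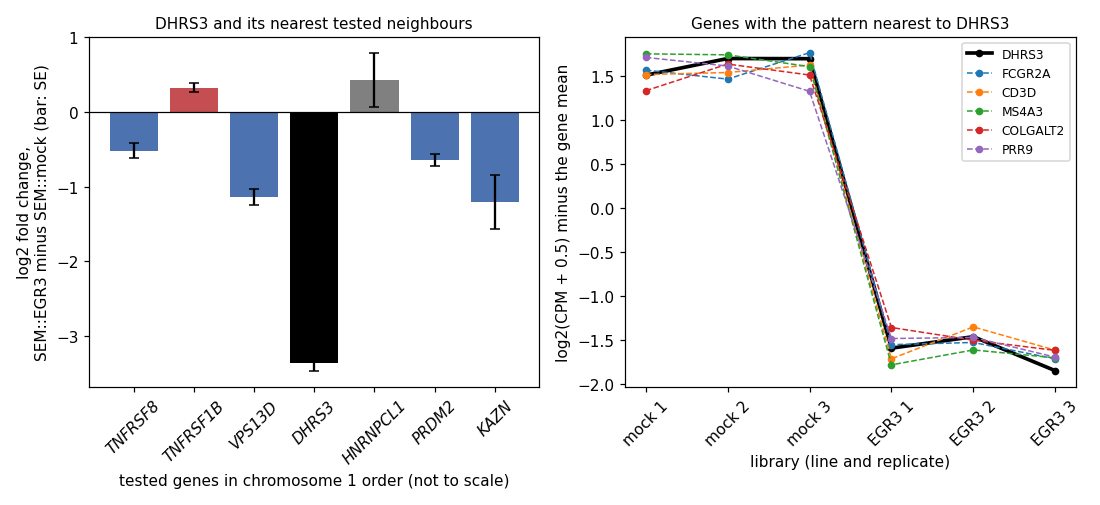
Left, log2 fold change (bar: SE) of DHRS3 and of the 3 nearest tested genes on each side of it, in chromosome order. Right, log2(CPM + 0.5) minus the gene's mean in each of the 6 libraries for DHRS3 and the 5 genes nearest to it. DHRS3 (-3.36), chosen for its decrease, stands below its neighbours, of which KAZN (-1.20) and VPS13D (-1.14) were lowest. The 5 nearest genes, picked by their values, were high in SEM::mock and low in SEM::EGR3 like DHRS3.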

How the data were processed

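MACE-Seq of 3 SEM::mock and 3 SEM::EGR3 libraries was performed and processed by the authors and their provider (bcl2fastq, Bowtie2, HTSeq and GRCh38 per the submitters' processing notes). Annotation, strand setting and molecular identifiers are not given in the sources used here. The values used here are the whole-number counts of each library as the authors deposited them. They also deposited CPM values of the same counts, a size-factor normalized signal, and log2 fold changes and p-values of their own comparison, none of which were used. Column headings spell EGR3 as ERG3 and were matched to the samples by line and number.

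Counts were analysed with edgeR 4.0.16 in R 4.3.3 (filterByExpr, TMM, glmQLFit and glmQLFTest without covariates). P-values were adjusted by Benjamini-Hochberg over 15465 tested genes, with a threshold of 0.05. On simulated counts of 15023 genes, 90 of 100 genes changed by a log2 size of 1 and 89 of 89 changed by 2 were recovered, with 11 false calls. Few genes were changed there, whereas 68.5% of all tested genes passed in the data, so the simulation does not cover scaling under such wide change. Positions are from GENCODE v29, which holds 96.9% of the gene identifiers, and promoters from RefSeq. The 9 genes and all lists were chosen with earlier results of these data known. Other genes named are those of the pathway list past an absolute log2 fold change of 1, or with at most 3 counts in every library of 1 line and more in every library of the other, the extremes of each role, the 5 genes nearest DHRS3 in pattern and its 3 neighbours on each side. RDH14, RDH12, DHRS4, ALDH1A1, ALDH1A3, CYP26A1, RARB, PPARD, NR1H2, NCOR1 and EP300 were added for context after their values were seen. The results of some pathway genes are not reported here. Alternatives were DESeq2 1.42.0, other scalings and filters, a replicate block, a minimum fold change and leaving out each library.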

Additional observations from a re-analysis of the deposited data

How the results depend on the processing

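Of 154 alternative values, 147 were kept and none reversed. Kept means the same direction and side of the threshold, or a move of less than 1.5 times where they were counts. For CYP26B1, not tested in the main fit, it means the same direction and a move smaller than the SD of its log2 CPM within the lines. The 4 that lost their call all concern RDH11, whose log2 fold change was -0.12 (adjusted p = 0.131) without normalization factors, -0.15 (adjusted p = 0.0667) with at least 10 counts required in every library, and between -0.27 and -0.13 with single libraries left out, in edgeR. The cause was not tested. A minimum absolute log2 fold change of 1 cut the calls over all genes from 10593 to 3896, and in the pathway list left 8 genes higher and 12 lower in place of 23 and 24, by its own construction. DESeq2 called 9391 genes, and leaving out single libraries gave 9938 to 10499. The replicate block gave 10082 calls and changed no call among the 9 genes; same-numbered libraries of the lines did not deviate together (correlations -0.12, -0.077 and -0.038), and no library correlated best with its own number, so the numbers were not taken as pairs. CYP26B1 passed the filter only without any 1 of the SEM::mock replicates or without SEM::EGR3 replicate 2, with fitted log2 fold changes of 0.28 to 0.47 (adjusted p = 0.258 to 0.568, edgeR). The other scalings, DESeq2, the replicate block and the stricter filter gave no fitted value for it. Depth limits statements on genes with few counts in SEM::mock, where 3 counts per library were taken as the floor, which covers counting error only.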

Other observations

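Nuclear receptors that share RXR as a partner were tested for 9 of 13 genes. Of these, 5 were higher and 2 lower, where 36.5% and 32.0% of all tested genes were. Their median log2 fold change was 0.51, beside 0.03 over all tested genes. The thyroid hormone receptor genes stood at the ends of this list. THRA rose from 18.3 ± 1.98 to 42.5 ± 1.72 CPM (SD over 3 libraries per line), or by a log2 fold change of 1.21 (SE 0.09, adjusted p = 3.43e-11, edgeR), and overlaps MED24 and NR1D1 on the opposite strand. THRB fell from 40.2 ± 2.38 to 16.9 ± 1.07 CPM (n = 3 per line), or by a log2 fold change of -1.25 (SE 0.09, adjusted p = 1.21e-11, edgeR). NR4A1, an orphan receptor induced early after stimulation, fell from 10.6 ± 0.514 to 4.61 ± 0.488 CPM (log2 fold change -1.21, SE 0.17, adjusted p = 5.58e-07, edgeR). PPARD, which responds to fatty acids, rose by 0.91 (adjusted p = 2.94e-08, edgeR) on the log2 scale, and the liver X receptor gene NR1H2 by 0.60 (adjusted p = 1.99e-07, edgeR).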
